A study of Mus musculus with 7 samples.

Results

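The 48 mitosis genes described here encode the kinases, checkpoint proteins, kinetochore and spindle parts, condensin subunits and cytokinesis proteins that carry a cell through division. They were chosen by name, for their known roles, but with earlier results of these data known. Each was found through its Entrez number among the 27179 genes of the deposited table. All 48 passed the filter on low values, a mean of at least 1 FPKM (reads scaled to exon length and library size) over the 7 libraries, which kept 13418 genes.

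Most mitosis genes are transcribed in one burst from late S phase to mitosis and are silent in resting cells, so their transcripts in a tissue come largely from cells that are dividing. In resting cells the DREAM complex holds many of them off through a short promoter element, the cell cycle genes homology region (CHR), and in dividing cells B-MYB and FOXM1 turn them on through the same element. In an arthritic ankle the dividing cells can include synovial fibroblasts, endothelium, infiltrating leukocyte precursors and the marrow of the small bones.

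RNA came from 7 whole ankles without skin. The mice were DBA1 with collagen-induced arthritis, in which immunisation against collagen inflames the joints. The joint had received a lipoplex, a lipid carrier, holding either an irrelevant control microRNA (control replicates 2, 3 and 5, n = 3) or a synthetic copy of miR-17-5p, the mimic (mimic replicates 1, 2, 4 and 5, n = 4). Both groups were arthritic and both were injected, with no uninjected or healthy ankle among the samples used here. Dose, sex, age and the time between injection and dissection are not given in the labels, which also leave unstated whether 2 ankles of 1 group shared an animal. A p-value here therefore covers only the spread among these libraries, which may be technical.

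Libraries held from 27465276 to 31118975 assigned reads, and between 158 and 5575 reads lay behind each value of a mitosis gene. Defining markers of synovial fibroblasts, cartilage, osteoblasts, endothelium and skeletal muscle were present in these whole ankles, with none at 0 in every library. Of the 13418 genes tested with limma, 0 (0%) passed an adjusted p under 0.05 in either direction; the smallest was 0.148, and 2356 genes had an unadjusted p under 0.05.

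In the mimic ankles all 48 mitosis genes averaged below the controls, against 51.7% of all genes tested. The difference was moderate and alike across the list: the median log2 fold change (mimic minus control, on log2(FPKM + 0.5)) was -0.46, beside a median of -0.0063 over all genes tested, and 38 of the 48 lay between -0.6 and -0.4. In FPKM the mimic mean was lower than the control mean by 12.2% to 39.1%, with a median of 30.7%. None passed limma's test over all genes, with adjusted p from 0.173 (Pimreg and Cdk1) to 0.525 (Smc4). At an unadjusted p under 0.05, 43 of the 48 were lower, against 10.1% of all genes tested. In 28 of the 48 every mimic library lay below every control library, against 8.84% of all genes tested. The list was chosen with earlier results of these data known, so these shares describe it and do not test it. In RNA of whole ankles, fewer dividing cells and less of these transcripts per dividing cell cannot be told apart.

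**Figure D1:**
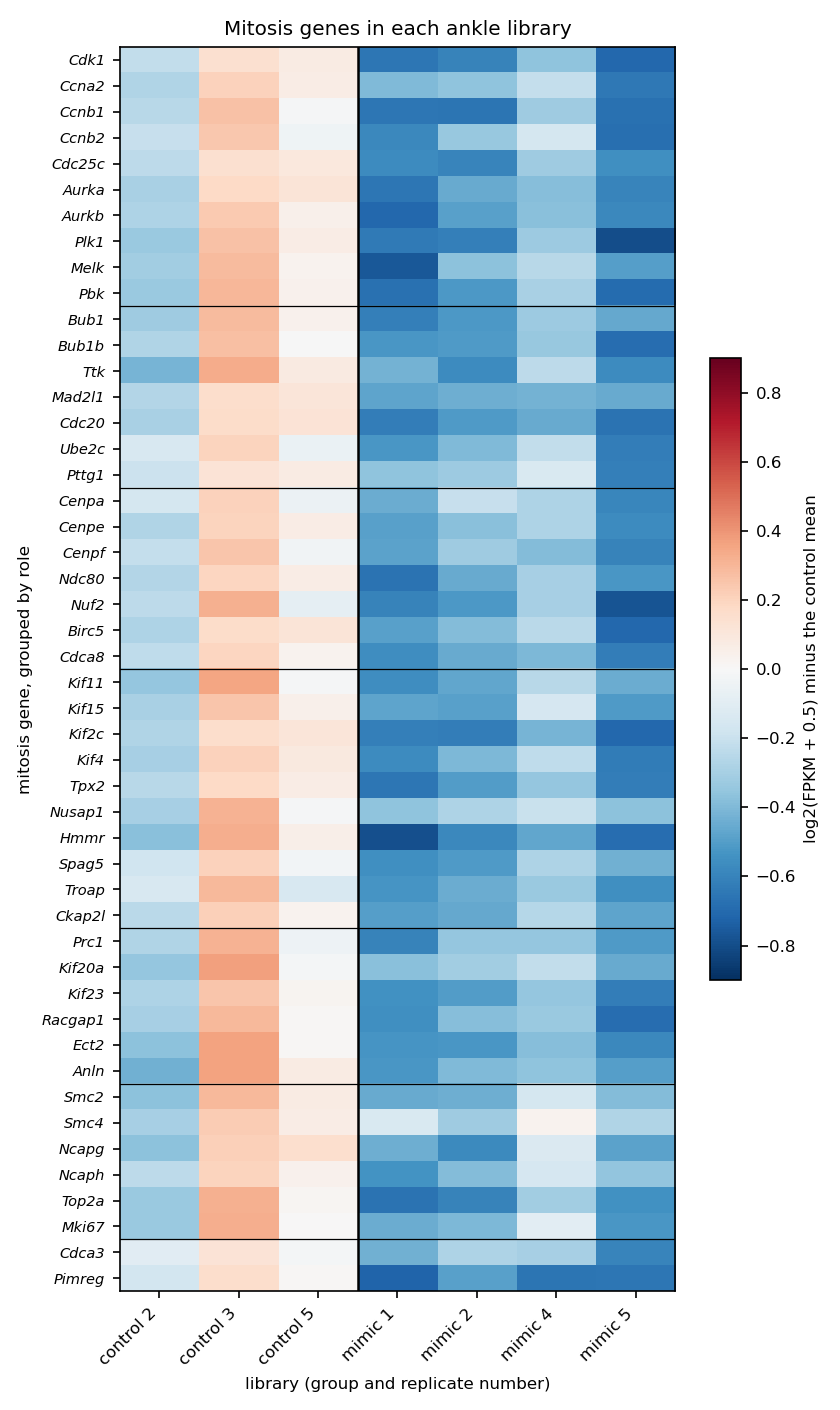
Heat map of the 48 mitosis genes (rows, grouped by role) in the 7 libraries (columns, group and replicate number), coloured by log2(FPKM + 0.5) minus the control mean of the gene, blue for lower and red for higher. Control replicate 3 is the reddest column, control replicate 2 is pale blue, and the 4 mimic columns are blue at nearly every gene, with mimic replicate 4 the palest of them.

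The 48 genes shared an order of libraries as well as a direction. Control replicate 3 was the highest control library at all 48 genes, and control replicate 2 was the lowest at 47 of them, the exception being Troap. Among the mimic libraries, replicate 4 was the highest at 44 genes, and replicate 5 was the lowest at 28 and replicate 1 at 17. Averaged over the 48 genes, the level was 3.15, 3.66 and 3.45 log2 units in control replicates 2, 3 and 5 and 2.88, 2.97, 3.13 and 2.85 in mimic replicates 1, 2, 4 and 5. At all 48 genes the 4 mimic libraries lay below control replicates 3 and 5, so an overlap arose only against control replicate 2, and in 16 of the 20 genes that overlapped it was mimic replicate 4 alone that reached it.

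How many genes passed depended on control replicate 2. Without it, control replicates 3 and 5 remained, the higher controls at 47 of the 48 genes. In that fit 18 of the 48 were lower at a limma adjusted p under 0.05, against 1.51% of all genes tested, and the median was -0.61. The lowest adjusted p there belonged to Mad2l1, at 0.0219, and to Cdc20, at 0.0262. Without control replicate 2 all 48 had separate groups, against 22.1% of genes tested, and without mimic replicate 4 the figure was 44 of 48, against 12.6%. Both counts restate the order of libraries given above. Without control replicate 3 the median was -0.34, and 30 of the 48 were lower at an unadjusted limma p under 0.05, against 6.75% of all genes. Without control replicate 5 the median was -0.46, and 33 were lower, against 4.82%. In each of these fits 0 of the 48 passed an adjusted p under 0.05.

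**Figure D2:**
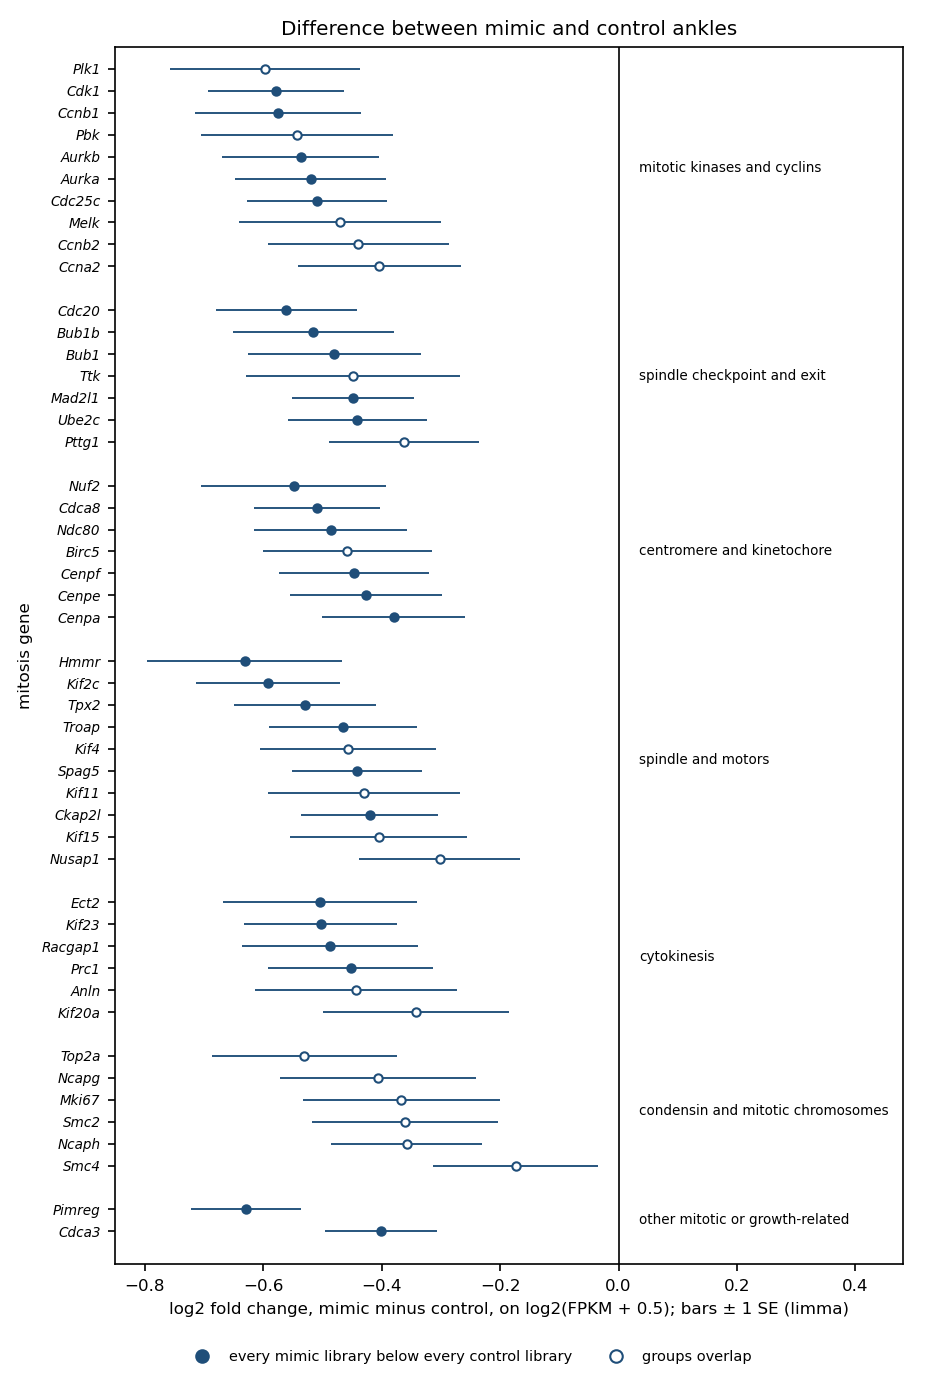
Log2 fold change (x axis, mimic minus control on log2(FPKM + 0.5)) of each mitosis gene (y axis, sorted within its role), with bars of 1 SE from limma; filled points mark genes at which every mimic library lay below every control library, and open points genes whose groups overlapped. All 48 points lie left of 0, from -0.63 (Hmmr and Pimreg) to -0.17 (Smc4), and the 6 condensin and chromosome genes all have open points.

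The cyclins and kinases that start and steer mitosis were lower in 10 of 10 genes (median log2 fold change -0.53), and 5 of them had separate groups. Cdk1, the kinase that drives entry into mitosis (mm10 chromosome 10, 69336635 to 69352912), stood at 19.5, 25.2 and 24.1 FPKM in control replicates 2, 3 and 5 and at 14.4, 14.9, 17.6 and 13.8 FPKM in mimic replicates 1, 2, 4 and 5. Every mimic library was below every control library. Its log2 fold change was -0.58 (SE 0.115, limma adjusted p = 0.173). Ccnb1, the cyclin B partner of Cdk1 (chromosome 13, 100778739 to 100786486), stood at 8.09, 11.8 and 9.65 FPKM in the controls and at 6.02, 5.98, 7.69 and 5.92 FPKM in the mimic libraries, again with no overlap. Its pseudogene Ccnb1-ps had at most 0.105 FPKM in any library, and reads that match both could be split or dropped in counting. Ccnb2, the other cyclin B, had the same direction but overlapping groups, with control replicate 2 at 18.7 FPKM and mimic replicate 4 at 19.4 FPKM. Ccna2, the cyclin A of S phase and early mitosis, stood at 17.0, 23.8 and 21.6 FPKM against 15.6, 15.9, 17.7 and 13.0 FPKM, where mimic replicate 4 exceeded control replicate 2.

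The Aurora and Polo kinases showed the same pattern. Aurka, which matures the centrosomes, stood at 8.59, 12.1 and 11.5 FPKM in the controls and at 6.61, 7.62, 8.04 and 6.89 FPKM in the mimic libraries. Aurkb, the kinase of the chromosomal passenger complex, stood at 12.0, 17.3 and 15.1 FPKM and at 8.77, 10.3, 11.2 and 9.64 FPKM. The groups were separate at both. Plk1, the Polo kinase of spindle assembly, had 10.9, 16.7 and 14.5 FPKM in the controls and 8.72, 8.87, 10.9 and 7.74 FPKM in the mimic libraries, where mimic replicate 4 and control replicate 2 touched. Its log2 fold change of -0.60 ± 0.161 (SE; adjusted p = 0.176, limma) was the lowest of the kinases. Cdc25c, the phosphatase that activates Cdk1, had a log2 fold change of -0.51 with separate groups, and Pbk, a mitotic kinase, of -0.54 with overlapping groups. Melk, a kinase of proliferating cells and the member of this set with the largest p, stood at 3.82, 6.03 and 4.98 FPKM against 2.66, 3.65, 4.02 and 3.31 FPKM, a log2 fold change of -0.47 ± 0.170 (SE; adjusted p = 0.238, limma).

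Genes of the spindle checkpoint, which delays anaphase until chromosomes are attached, and of the exit machinery it restrains were lower in 7 of 7 (median log2 fold change -0.45), 5 with separate groups. Cdc20, the activator of the anaphase-promoting complex (chromosome 4, 118432901 to 118437343), stood at 18.8, 25.9 and 25.2 FPKM in the controls and at 14.8, 16.1, 16.8 and 14.4 FPKM in the mimic libraries. Its log2 fold change was -0.56 (SE 0.119, limma adjusted p = 0.174), with every mimic library below every control. Mad2l1, the checkpoint protein that binds Cdc20, had the tightest mimic group of the list, at 11.3, 11.6, 11.7 and 11.5 FPKM against 13.1, 17.8 and 17.1 FPKM in the controls. Bub1, a checkpoint kinase, stood at 3.76, 5.97 and 4.95 FPKM and at 2.96, 3.22, 3.74 and 3.37 FPKM, so that mimic replicate 4 came just under control replicate 2. Bub1b, the related BubR1, had a log2 fold change of -0.52. Ttk, the kinase that starts the checkpoint signal, stood at 2.78, 5.02 and 4.14 FPKM in the controls and at 2.76, 2.46, 3.22 and 2.46 FPKM in the mimic libraries, where only mimic replicate 4 overlapped and the control libraries themselves were spread widely. Ube2c, the ubiquitin-conjugating enzyme of the anaphase-promoting complex, had the highest control level of all 48 genes, at 28.9, 36.9 and 30.8 FPKM, and 22.1, 24.2, 27.3 and 20.7 FPKM in the mimic libraries without overlap. Pttg1, or securin, which holds separase inactive, had the smallest difference of this set, a log2 fold change of -0.36.

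At the centromere and kinetochore, where chromosomes meet the spindle, 7 of 7 genes were lower (median log2 fold change -0.46), and 6 had separate groups. Cdca8, or borealin, of the passenger complex, stood at 15.8, 21.3 and 19.1 FPKM in the controls and at 12.5, 13.4, 13.9 and 11.9 FPKM in the mimic libraries, a log2 fold change of -0.51 ± 0.106 (SE; adjusted p = 0.174, limma). Birc5, or survivin, of the same complex, stood at 10.7, 14.7 and 14.2 FPKM and at 9.17, 9.82, 10.9 and 7.80 FPKM, the one gene of this set whose groups overlapped. Cenpa, the histone variant that marks the centromere, stood at 24.1, 31.2 and 26.0 FPKM and at 19.6, 23.3, 22.2 and 17.7 FPKM, with a log2 fold change of -0.38 ± 0.121 (SE; adjusted p = 0.210, limma), the smallest here. For Cenpa the highest mimic library was replicate 2, not replicate 4. Cenpe, a kinetochore motor, stood at 3.21, 4.62 and 4.19 FPKM and at 2.68, 2.94, 3.18 and 2.52 FPKM, so mimic replicate 4 and control replicate 2 nearly met. Ndc80 and Nuf2, which pair in the complex that grips microtubules, had log2 fold changes of -0.49 and -0.55, and Cenpf, a large kinetochore protein, of -0.45.

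Among the motors and proteins of the spindle, 10 of 10 were lower (median log2 fold change -0.45), 6 with separate groups. Kif2c, a kinesin that takes microtubules apart at the centromere, stood at 7.08, 9.68 and 9.37 FPKM in the controls and at 5.47, 5.42, 6.32 and 5.08 FPKM in the mimic libraries, a log2 fold change of -0.59 ± 0.121 (SE; adjusted p = 0.174, limma). Hmmr, a spindle protein that also binds hyaluronan, had the lowest log2 fold change of the 48 genes at -0.63 (SE 0.164, limma adjusted p = 0.176), from 6.99 ± 1.77 FPKM (SD, n = 3) to 4.26 ± 0.46 FPKM (SD, n = 4). Tpx2, which activates Aurora A on the spindle, stood at 10.1, 13.8 and 12.7 FPKM and at 7.56, 8.44, 9.43 and 7.72 FPKM. Each of these 3 had separate groups. Kif11, the kinesin that pushes the spindle poles apart, overlapped, with 5.71, 9.63 and 7.35 FPKM against 4.86, 5.22, 6.15 and 5.30 FPKM. Nusap1, a microtubule-binding protein, had the largest p of this set and was the one gene in it above an unadjusted p of 0.05. Nusap1 stood at 7.64, 12.0 and 9.45 FPKM and at 7.31, 7.76, 8.24 and 7.26 FPKM, so control replicate 2 lay inside the mimic range. Kif15, Kif4, Spag5, Troap and Ckap2l, of which the first pair are motors and the others spindle-associated proteins, had log2 fold changes between -0.47 (Troap) and -0.40 (Kif15).

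Cytokinesis genes, which build the midzone and the contractile ring, were lower in 6 of 6 (median log2 fold change -0.47), 4 with separate groups. Kif23, a motor of the centralspindlin complex, had the smallest p of this set, at 6.93, 10.2 and 8.65 FPKM in the controls and 5.66, 5.86, 6.58 and 5.36 FPKM in the mimic libraries, a log2 fold change of -0.50 ± 0.129 (SE; adjusted p = 0.176, limma). Prc1, which bundles midzone microtubules, stood at 16.1, 24.4 and 18.9 FPKM and at 12.7, 15.2, 15.2 and 13.6 FPKM. Ect2, the activator of RhoA at the division plane, stood at 2.81, 5.01 and 3.82 FPKM and at 2.47, 2.48, 2.79 and 2.37 FPKM. In each of these the mimic libraries were close together and the spread lay in the controls. Anln, the ring scaffold anillin, stood at 6.44, 11.5 and 9.32 FPKM and at 6.00, 6.61, 6.78 and 6.14 FPKM, with control replicate 2 inside the mimic range. Racgap1, the partner of Kif23 in centralspindlin, had a log2 fold change of -0.49 with separate groups. Kif20a, a midzone motor with the largest p of this set, stood at 8.26, 13.9 and 10.5 FPKM and at 8.08, 8.48, 9.07 and 7.63 FPKM, a log2 fold change of -0.34 ± 0.157 (SE; adjusted p = 0.309, limma).

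Genes of condensin and of mitotic chromosomes differed least: 6 of 6 had a lower mean, but the median log2 fold change was -0.36, 3 of 6 were lower at an unadjusted p under 0.05 and 0 of 6 had separate groups. Whether this set differs from the other mitosis genes was not tested. Smc4, a condensin ATPase subunit, stood at 18.0, 26.2 and 23.3 FPKM in the controls and at 20.2, 17.7, 22.8 and 18.3 FPKM in the mimic libraries, which lay within the control range except for replicate 2. Its log2 fold change of -0.17 ± 0.140 (SE; adjusted p = 0.525, limma) was the smallest of the 48. Smc2, its ATPase partner, stood at 5.41, 8.85 and 7.53 FPKM and at 5.08, 5.13, 6.33 and 5.31 FPKM, with mimic replicate 4 above control replicate 2. Top2a, the topoisomerase that untangles sister chromatids, had the lowest value of this set, a log2 fold change of -0.53 ± 0.156 (SE; adjusted p = 0.193, limma). Top2a stood at 21.7, 34.4 and 27.7 FPKM and at 17.1, 18.0, 22.0 and 18.6 FPKM. Mki67, the proliferation marker Ki-67 that coats mitotic chromosomes, stood at 12.5, 20.1 and 16.0 FPKM and at 11.5, 11.9, 14.9 and 10.9 FPKM, where mimic replicate 4 was above control replicate 2. Ncapg and Ncaph, the other condensin subunits listed, had log2 fold changes of -0.41 and -0.36.

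The remaining pair of genes both had separate groups. Pimreg, a mitotic protein of proliferating cells (chromosome 11, 72042502 to 72047370), had the smallest p of the 48 genes, at 10.5, 13.2 and 11.9 FPKM in the controls and 6.97, 8.26, 7.31 and 7.35 FPKM in the mimic libraries. Its log2 fold change was -0.63 (SE 0.0922, limma adjusted p = 0.173). Its lowest control exceeded its highest mimic library by more than the mimic libraries differed among themselves. Cdca3, a cell-cycle protein that promotes entry into mitosis, stood at 16.5, 19.3 and 17.5 FPKM and at 13.0, 14.5, 14.3 and 11.6 FPKM, a log2 fold change of -0.40 ± 0.0945 (SE; adjusted p = 0.174, limma).

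Levels per kilobase can be compared between the genes. In the controls the mean ran from 3.57 FPKM (Cenpf) to 32.2 FPKM (Ube2c), with a median of 9.91 FPKM over the 48, and in the mimic libraries the median was 7.07 FPKM. Exons of 5 members are shared with genes on the opposite strand, and how strand was handled in counting is not stated, so their reads could be mixed or lost: Kif20a shares 1115 bases with Cdc23 and 187 with Brd8, Ncapg 770 with Lcorl, Ccna2 378 with Exosc9, Nusap1 208 with Oip5 and Cdc20 16 with Elovl1.

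Many mitosis genes are already known to carry the CHR, so a high share in this list is not an independent result. RefSeq promoters of build GRCm38.p6, from 250 bases before to 50 after the start site, were at hand for 40 of the 48 genes, all but Aurkb, Ccna2, Cdc25c, Kif20a, Pbk, Pimreg, Smc4 and Tpx2. The CHR, searched as TTTGAA or TTCGAA on both strands, was in 30 of those 40 (75.0%), against 16.3% of the 10365 tested genes with a promoter and 19.2% of all 32851 promoters. Close to the start site, within 50 bases on either side, it was in 28 of 40 (70.0%), against 4.23% of the tested genes. The CCAAT box, which NF-Y binds beside the CHR in many of these genes and which was searched as CCAAT on both strands, was in 29 of 40 (72.5%), against 42.4% of the tested genes and 37.4% of all promoters, and 26 genes held both. An E2F site, searched as TTTCGCGC or TTTGGCGC on both strands, was in 2 of 40 (5.0%), Cdk1 and Kif15, against 1.75% of the tested genes and 0.813% of all promoters; the motifs searched can overlap at single bases. Such a match is only a string of letters and shows no binding.

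The 100 bases before the start site are shown for 5 members that hold a CHR there, spread over kinase, exit and chromosome roles, and for Birc5, which holds neither motif in the whole window. Capitals mark the CHR (TTTGAA, or TTCAAA on the other strand) and the CCAAT box (CCAAT, or ATTGG on the other strand), and each sequence reads 5′ to 3′ on the gene's own strand and ends at the base before the start site.
Cdk1, chr10:69352913-69353012, minus strand: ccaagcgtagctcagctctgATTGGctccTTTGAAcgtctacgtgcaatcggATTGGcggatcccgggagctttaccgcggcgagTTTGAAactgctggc
Cdc20, chr4:118437344-118437443, minus strand: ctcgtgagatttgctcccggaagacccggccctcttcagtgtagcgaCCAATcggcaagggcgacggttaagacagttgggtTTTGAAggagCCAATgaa
Ube2c, chr2:164769829-164769928, plus strand: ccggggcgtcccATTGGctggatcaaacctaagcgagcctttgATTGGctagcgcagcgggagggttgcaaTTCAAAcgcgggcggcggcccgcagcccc
Ncapg, chr5:45669825-45669924, plus strand: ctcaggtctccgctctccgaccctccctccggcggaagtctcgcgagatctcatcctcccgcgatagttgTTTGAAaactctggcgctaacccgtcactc
Top2a, chr11:99024190-99024289, minus strand: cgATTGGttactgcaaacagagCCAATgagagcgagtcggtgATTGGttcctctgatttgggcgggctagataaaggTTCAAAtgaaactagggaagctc
Birc5, chr11:117849137-117849236, plus strand: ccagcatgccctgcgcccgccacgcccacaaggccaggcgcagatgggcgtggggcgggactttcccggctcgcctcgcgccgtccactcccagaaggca

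Within the list, the median log2 fold change was -0.45 in the 30 members with a CHR match and -0.45 in the 10 without. Among the other tested genes it was -0.012 in the 1657 with a match anywhere in the window and -0.0057 in the 8668 without. Neither comparison was tested.

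**Figure D3:**
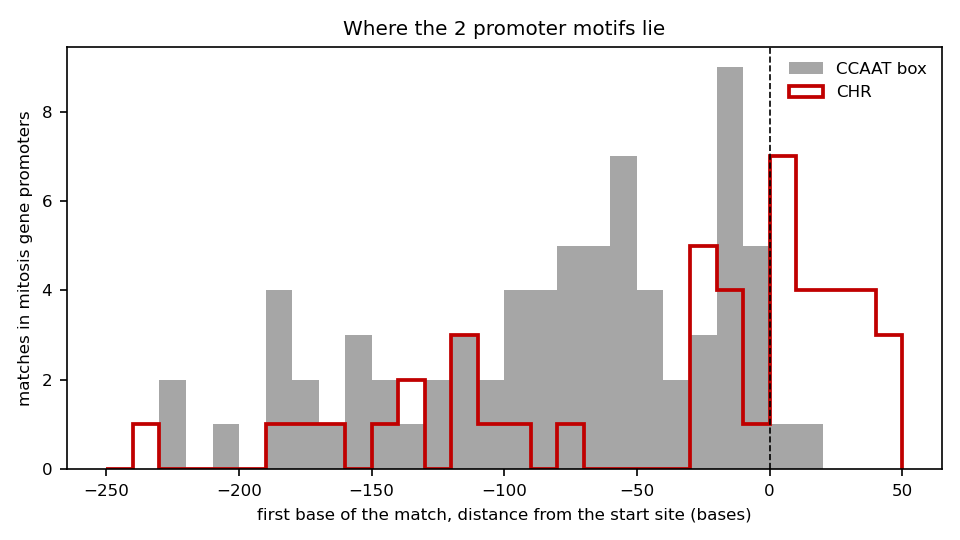
Number of motif matches (y axis, bins of 10 bases) by distance of the first base from the start site (x axis, negative before it) in the promoters of the mitosis genes, with CHR matches as the red outline and CCAAT boxes in grey. CHR matches gather within 50 bases of the start site, where 28 of 40 genes hold one, and CCAAT boxes lie mostly in the 100 bases before it.

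Direct matches to the injected microRNA were few. The mature miR-17-5p (Mir17, chr14:115043684-115043706, plus strand, GRCm38.p6) is shown with its seed, bases 2 to 8, in capitals, since the seed decides which transcripts it can pair with.
miR-17-5p: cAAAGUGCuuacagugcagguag
Matches of 8 letters (GCACTTTA) or 7 letters (CACTTTA or GCACTTT) were sought in each gene's longest 3 prime UTR of the GENCODE M21 annotation (GRCm38), and at least 1 was found in 4 of the 48 mitosis genes (8.33%), against 21.4% of 12495 tested genes. The mitosis genes had shorter UTRs, with a median of 606 bases against 1145, and a shorter UTR has less room for a match. The 4 matches follow, with the letters of the match in capitals; a final A in capitals faces base 1 of the microRNA and does not pair with it.
Kif23, 8mer, chr9:61917435-61917442, minus strand: gattagctgcaaaaaaaaatGCACTTTAg
Smc2, 7mer, chr4:52486780-52486786, plus strand: ttcatatgtaattctttttaGCACTTTt
Ccna2, 7mer, chr3:36565510-36565516, minus strand: acacacacacagagatccacCACTTTAg
Cenpe, 7mer, chr3:135273371-135273377, plus strand: cttagtttcagtctaatttcCACTTTAg
The median log2 fold change was -0.42 over these 4 and -0.46 over the 44 mitosis genes without a match. Over all tested genes with a UTR it was -0.0083 in the 2671 with a match and -0.0084 in the 9824 without. Whether the mimic acted directly on any of these transcripts was not tested.

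Mitotic genes outside the list also had lower means in the mimic ankles. Of 109 tested genes in 5 further lists of mitotic genes, 100 had a lower mean, against 51.7% of all genes tested. At an unadjusted limma p under 0.05, 46 were lower, against 10.1% of all genes tested. In the other direction 1 was higher (Lin52, of the MuvB complex), against 1003 of all 13418 genes tested. Of the 109, 0 passed limma over all genes. For spindle and cytokinesis genes the median log2 fold change was -0.40 (17 of 22 lower at an unadjusted p under 0.05), with Tacc3, a spindle protein, going from 14.2 ± 1.71 FPKM (SD, n = 3) to 10.3 ± 0.38 FPKM (SD, n = 4). Cit, the cytokinesis kinase citron, had the largest p there, with a log2 fold change of -0.15. For kinetochore and checkpoint genes the median was -0.26 (17 of 38), with Ska3, of the outer kinetochore, at -0.43 and Mis12, a kinetochore subunit, at -0.04. For regulators of mitotic entry it was -0.19 (8 of 19 lower), with Cdca2, a phosphatase subunit of mitotic chromosomes, at -0.55 and Arpp19, a phosphatase inhibitor, at 0.02.

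All 7 cell-cycle lists set beside the mitosis genes had a median nearer to 0 than -0.46, and the differences were not tested. The counts that follow stand beside 10.1% of all genes tested, the share lower at an unadjusted limma p under 0.05. Cohesin, separase and further condensin genes had a median log2 fold change of -0.12 (1 of 15 lower at an unadjusted p under 0.05, Espl1, which encodes separase, at -0.33), with Pds5b, a cohesin regulator, at 0.04. Subunits and partners of the anaphase-promoting complex had -0.071 (3 of 15), with Ube2s, its chain-elongating enzyme, at -0.22 and Anapc11, its catalytic subunit, at 12.1 ± 0.765 FPKM (SD, n = 3) in the controls and 12.1 ± 0.862 FPKM (SD, n = 4) in the mimic libraries. DNA replication genes had -0.23 (11 of 35), with Tk1, the thymidine kinase of S phase, at -0.53 and Gins4, a helicase subunit, at 0.01. G1 cyclins and kinases had -0.15 (0 of 8), with Ccne1 at -0.34 and Ccne2, the other cyclin E, at -0.17.

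**Figure D4:**
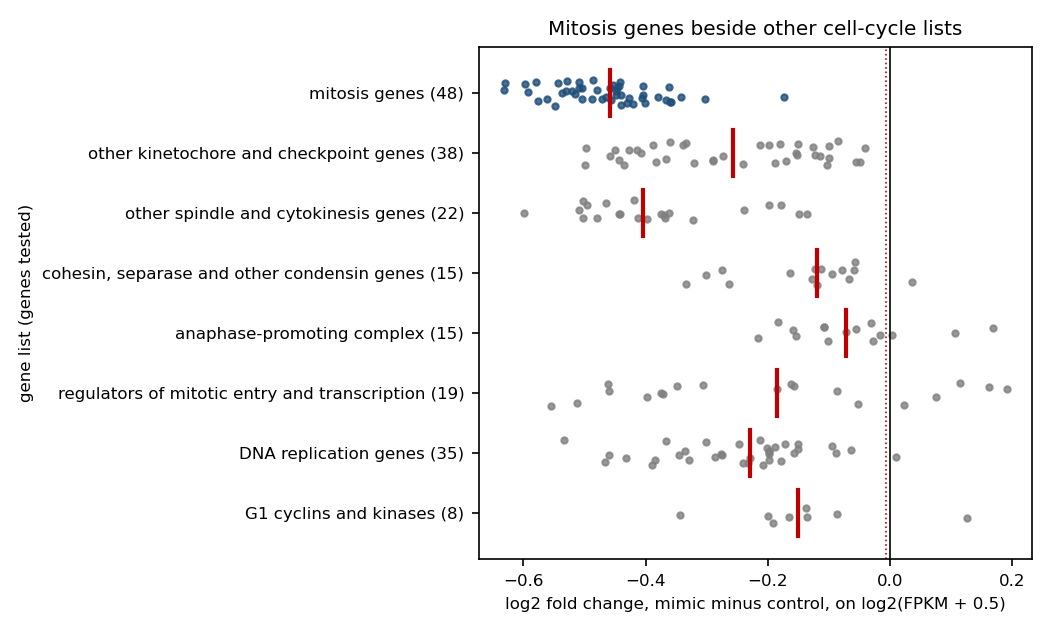
Log2 fold change (x axis, mimic minus control on log2(FPKM + 0.5)) of single genes (points) in the mitosis genes (blue) and 7 further cell-cycle lists (grey), with the number of genes tested in brackets, a red bar at each median and a dotted line at the median of all genes tested. The mitosis genes have the lowest median, -0.46, followed by other spindle and cytokinesis genes at -0.40, and the anaphase-promoting complex lies nearest to 0 at -0.071.

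Mean levels of markers of the cell types that could supply dividing cells differed in direction from each other. Erythroid markers, from marrow, summed to between 51.2 and 70.4 FPKM in the controls and between 60.5 and 117 FPKM in the mimic libraries. Of 11 tested, 10 had a higher mean in mimic ankles, 2 of them at an unadjusted limma p under 0.05, against 1003 of all 13418 genes tested. Markers of neutrophil precursors had a lower mean in 9 of 9, 0 of them at an unadjusted limma p under 0.05. Their sums were 362, 1073 and 258 FPKM in control replicates 2, 3 and 5. In mimic replicates 1, 2, 4 and 5 they were 606, 383, 677 and 188 FPKM. Control replicate 3, the highest control at every mitosis gene, was thus also the highest control here, while control replicate 5, not 2, was the lowest. Markers of B cell precursors had a higher mean in 8 of 8 tested, 0 of them at an unadjusted limma p under 0.05. Their sums ran from 24.9 to 31.3 FPKM in the controls. In mimic replicates 1, 2, 4 and 5 they were 35.0, 21.2, 30.5 and 61.3 FPKM. Mimic replicate 5 thus stood far above the rest, and mimic replicate 2 lay below every control. Synovial fibroblast markers had a higher mean in 6 of 10 and endothelial markers in 4 of 6. T cell markers had a lower mean in 7 of 7 tested, 0 of them at an unadjusted limma p under 0.05. Macrophage markers had a lower mean in 4 of 8, 2 of them at that level, against 10.1% of all genes tested. Megakaryocyte markers had a lower mean in 1 of 5 tested. No marker in these lists was at 0 in every library.

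Markers of several other cell types had a lower or a higher mean in the mimic ankles, though 0 of them passed limma's adjusted test. Over all 13418 genes tested, 1353 were lower and 1003 higher at an unadjusted limma p under 0.05. In 869 of the 13418 every mimic library lay above every control library. Markers of mature neutrophils, which no longer divide, had a lower mean in 7 of 7, 6 of them at an unadjusted p under 0.05, with sums from 2907 to 5633 FPKM in the controls and from 1217 to 3009 FPKM in the mimic libraries. Osteoclast markers had a lower mean in 6 of 6 tested, all at an unadjusted p under 0.05, with sums from 2148 to 2269 FPKM in the controls and from 1728 to 1941 FPKM in the mimic libraries. Adipocyte markers had a higher mean in 7 of 7, all at an unadjusted p under 0.05 and 5 with separate groups, with sums from 504 to 822 FPKM in the controls and from 826 to 1132 FPKM in the mimic libraries. Osteoblast markers had a higher mean in 7 of 7, 1 of them at an unadjusted p under 0.05, with sums from 603 to 883 FPKM and from 851 to 1006 FPKM. Skeletal muscle markers had a higher mean in 12 of 12, 0 of them at an unadjusted p under 0.05, with sums of 8125, 3900 and 1404 FPKM in control replicates 2, 3 and 5 and from 3201 to 11833 FPKM in the mimic libraries. Control replicate 2, the lowest control at 47 of the mitosis genes, was thus the control with the most muscle transcript. When the mean of the muscle markers was added to the fit, the median of the 48 genes was -0.41. With the erythroid mean it was -0.59, with that of neutrophil precursors -0.42 and with that of B cell precursors -0.46. With muscle, 31 of the 48, in place of 43, were lower at an unadjusted limma p under 0.05, against 6.28% of all genes. With B cell precursors it was 35, against 7.64%. With the erythroid and neutrophil precursor means it was 43 in each fit, against 6.81% and 8.67%. The part of mature neutrophils, osteoclasts, adipocytes and osteoblasts was not tested.

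**Figure D5:**
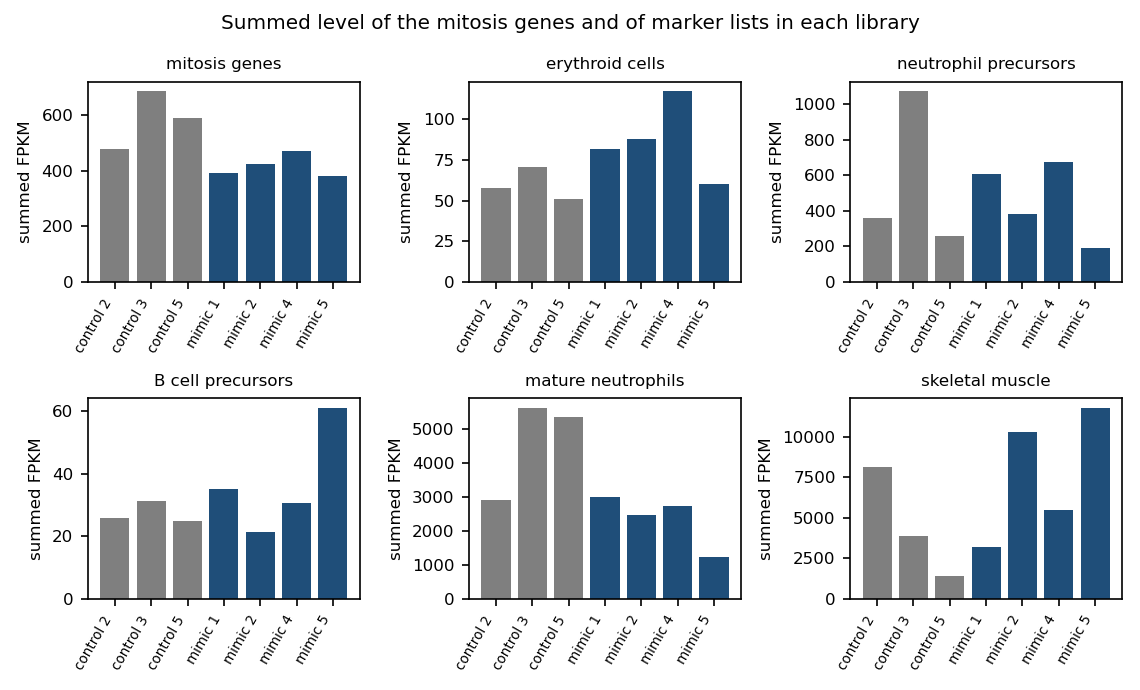
Summed FPKM (y axis, from 0) of the 48 mitosis genes and of 5 marker lists in each library (x axis, grey bars for control and blue for mimic libraries). The mitosis sum is highest in control replicates 3 and 5, at 686 and 591 FPKM, and lies between 380 and 471 FPKM in the mimic libraries, whereas the erythroid sum is highest in mimic replicate 4 and the muscle sum in mimic replicate 5, with control replicate 2 the highest control for muscle.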

How the data were processed

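RNA-seq FPKM values per gene were deposited by the authors for all 7 libraries in one table with gene lengths. STAR 2.5.2b, Subread with featureCounts, bcl2fastq 2.20 and DESeq2 1.14.1 are the tools named, and mm10 and GRCm38 the builds, per the submitters' processing notes, with no further detail. FPKM multiplied by gene length, and divided by the value of a single read fitted for each library, gave whole reads. Total reads per library were recovered in this way.

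Genes averaging 1 FPKM or more were tested as log2(FPKM + 0.5) with limma 3.58.1 in R 4.3.3 (moderated variance with a trend, Benjamini-Hochberg adjustment over 13418 genes). Groups came from the labels. The script was tested on simulated data. Symbols matched 25275 of 27179 Entrez numbers. The members and lists were chosen with earlier results of these data known. Named genes were a set of well-known members plus those with the smallest and largest p of each role or list. Alternatives were other pseudocounts, filters, scalings, variance models, limma-voom on the recovered reads, covariates, a replicate block and each library left out.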

Additional observations from a re-analysis of the deposited data

Results flagged for a closer look

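At 4 of the 48 mitosis genes the mimic group held a library far from the others, and in each it was mimic replicate 4, the highest. The gap to its nearest neighbour, as a share of the group's range, was 0.943 for Ccnb1, 0.916 for Kif15, 0.864 for Ckap2l and 0.846 for Cdc25c, each above Dixon's 95% critical value for 4 samples. Chance flags about 1 group in 20, and the 48 genes were measured in the same libraries, so their gaps are not independent. The control group, with 3 libraries, was not checked this way.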

How the results depend on the processing

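All 997 values of single mitosis genes under the 21 other settings kept a lower mean in the mimic ankles. None lost a call, since none passed in the first place, and 18 gained one, all without control replicate 2. The median log2 fold change ranged from -0.61 to -0.34 when 1 library was left out. Members lower at an unadjusted p under 0.05 numbered 30 (without control replicate 3, against 6.75% of all genes) to 48 (without control replicate 2, against 15.3%), with 4.82% to 15.3% of all genes over these fits. Members with separate groups numbered 28 to 48, at 48 without control replicate 2, 44 without mimic replicate 4 and 28 without any other single library. With a filter at 5 FPKM, which 37 members passed, 22 had separate groups. Over all genes, 0 to 318 passed with 1 library left out, 318 of them without control replicate 2, and 1 passed without the filter on low values. voom on the recovered reads called 0 genes. Replicate numbers 2 and 5 occur in both groups, but the deviations of same-numbered libraries correlated at 0.54 and -0.43, so the numbers were not taken to pair the ankles. With the replicate block the median was -0.39, and 11 members, in place of 43, were lower at an unadjusted p under 0.05, against 4.96% of all genes, in place of 10.1%. Every pair of libraries differed by more than counting error, with a chi-square of at least 17.6 per gene, and the lowest member value rests on 158 reads.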

Other observations

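The promoter element of the mitosis genes was also frequent in the related lists. A CHR match lay in 13 of 20 promoters (65.0%) of the other spindle and cytokinesis genes, in 7 of 12 (58.3%) of the cohesin, separase and further condensin genes and in 17 of 32 (53.1%) of the other kinetochore and checkpoint genes. In regulators of mitotic entry it was 5 of 13 (38.5%), in the anaphase-promoting complex 3 of 14 (21.4%), in DNA replication genes 6 of 29 (20.7%) and in G1 cyclins and kinases 0 of 5, against 16.3% of all tested genes with a promoter. Cohesin and condensin genes held the element often, and their median log2 fold change, -0.12, stood beside -0.46 for the mitosis genes; the difference was not tested.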
